A study of Mus musculus with 5 samples.

Results

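Messenger RNA in the pancreas of wild-type mice given caerulein was compared with that of wild-type mice given saline. The comparison uses 3 of the 5 libraries of the series: wild-type caerulein replicates 1 and 2, and wild-type saline replicate 1, which is the only saline library. All 1457 listed genes were taken as members, and every one of them is listed in all 3 libraries. The mice were female C57BL/6, aged 8 weeks. Caerulein was injected repeatedly into the peritoneum at 50 µg/kg, and the gland was removed 24 h from the start of injections. The remaining 2 libraries are from miR-21-/- mice given caerulein. They enter here through the filter on low values, the estimate of spread in 1 model, the alternative scalings and a few descriptions that name them. Whole pancreas was used, and the labels do not say whether each library is a separate mouse, so the spread between libraries may be technical.

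Caerulein is a peptide that acts like the gut hormone cholecystokinin. Pancreatic acinar cells carry its receptor and answer a normal dose by secreting digestive enzymes; too much of it blocks secretion, activates trypsinogen inside the cell and causes an oedematous, inflammatory injury. Leukocytes then enter the gland, stellate cells take on a matrix-producing state, and surviving acinar cells can lose acinar features and gain ductal ones before they regenerate. In RNA from a whole gland, a change in the number of cells of a type and a change in RNA per cell cannot be told apart.

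The libraries differed over their whole range. The median value of the listed genes was 0.62 in saline, 12.9 in caerulein replicate 1 and 7.59 in replicate 2, in a unit that is not stated. The lowest value, 0.01, was treated as not detected; it was given to 540 genes (37.1%) in saline, 34 (2.33%) in replicate 1 and 89 (6.11%) in replicate 2. Genes that most cells use are among the 540, such as Hsp90aa1 (a chaperone) and Cltc (clathrin heavy chain), so 0.01 in saline cannot be read as an absent transcript. Read depth is unknown and no counting interval can be given. The rows stand in falling order of the ratio of the caerulein mean to saline, with 0 rows out of place, and 1416 of the 1457 genes reached 10 in at least 1 of the 5 libraries. The table therefore appears to hold genes chosen in part for differing from saline, and it is described here by gene class and rank. A gene was tested if 2 or more libraries reached 1, which left 1429 genes. Over these, Spearman's rho was 0.35 between the 2 wild-type caerulein libraries. Each of them ranked genes more like a knockout library: rho was 0.73 for wild-type replicate 1 with knockout replicate 3, and 0.74 for the other pair. The points are genes measured in shared libraries, and the labels give no batch.

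**Figure D1:**
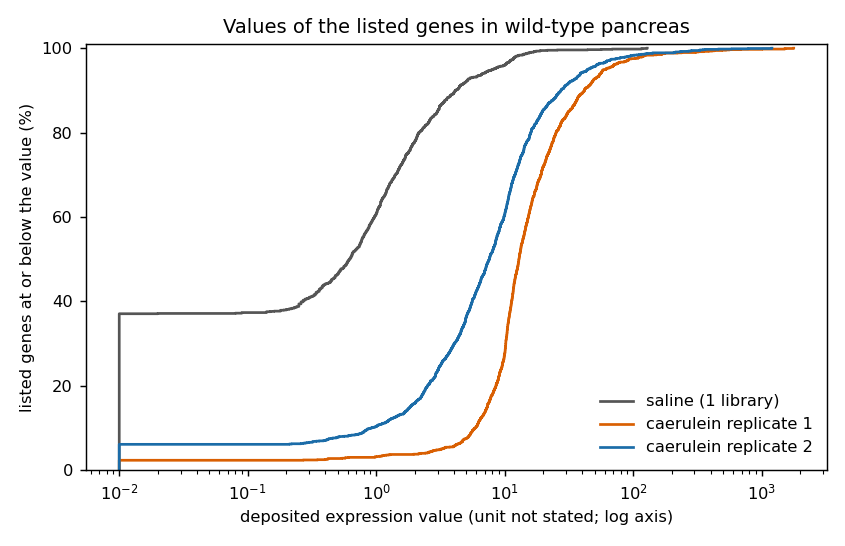
Cumulative share of the 1457 listed genes (vertical axis, percent) at or below each deposited value (horizontal log axis, unit not stated) in the saline library and the 2 caerulein libraries. The saline curve starts at 37.1% at the lowest value and lies to the left throughout; replicate 2 lies to the left of replicate 1 over most of the range.

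Defining markers of the gland's cell types were only partly listed. For acinar cells 4 of 10 were present (Prss1, Prss3, Klk1 and Cckar), and their summed value was 11.3 in saline, 983 in replicate 1 and 38.5 in replicate 2. For stellate cells or fibroblasts 3 of 7 were listed, with sums of 1.38, 550 and 56.0 in the same order, most of it Col3a1. Macrophage markers (3 of 6) summed to 0.40, 183 and 63.8. The single neutrophil marker, Csf3r, was 0.01, 8.09 and 21.8, and the 2 islet markers, Pcsk2 and Slc2a2, summed to 25.9, 10.7 and 9.74. No marker of ducts, T cells, endothelium or adipocytes from these short lists was present. The labelled tissue could thus be checked against few acinar genes, all with close relatives except Cckar.

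The question of this comparison is which kinds of transcript stood higher or lower in the gland a day into caerulein injury. Only classes with at least 5 tested members were ranked. Their 7 highest medians were, in falling order, those of non-collagen matrix, macrophage, collagen, acinar, pan-leukocyte, redox and iron, and actin genes. The acinar median differed widely between the treated libraries. Genes of protein folding in the endoplasmic reticulum (ER) and of cytokine signalling had low medians. Differences are given on the log2(value + 1) scale as the mean of the caerulein libraries minus saline, and this scale understates the change of low genes. The median difference was 2.71 over the tested genes, 3.19 in replicate 1 and 2.32 in replicate 2. Both caerulein libraries lay above saline for 1275 of 1457 genes (87.5%) and both lay below it for 36 (2.47%), figures that the choice of genes fixes in part. The like counts given below for single classes are to be read against that 87.5%. Most members named below for a ranked class were chosen for the highest lower treated value. High values in both treated libraries therefore follow in part from that choice. The 40 gene classes held 433 of the listed genes (29.7%); 29 classes with at least 5 tested members were ranked.

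Medians of the ranked classes ran from 3.68 for non-collagen matrix proteins to 2.06 for the ER class. There were 7 classes that stood above the median of all genes in every setting in which they could be computed: non-collagen matrix, macrophages, collagens, pan-leukocyte genes, redox and iron, actin and myosin, and mitochondrial ribosome and import. For macrophages, collagens, pan-leukocyte genes and redox and iron this was 9 of the 10 settings. With only genes detected in saline they kept too few members to be ranked, so their dependence on values of 0.01 was not checked. Another 2 classes, ER folding and cytokine signalling, stood below it in all 10 settings. The other 20 classes changed side in at least 1 setting and are not set apart from the rest. Only 6 of the 10 highest classes were among the 10 highest in each caerulein library taken alone.

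**Figure D2:**
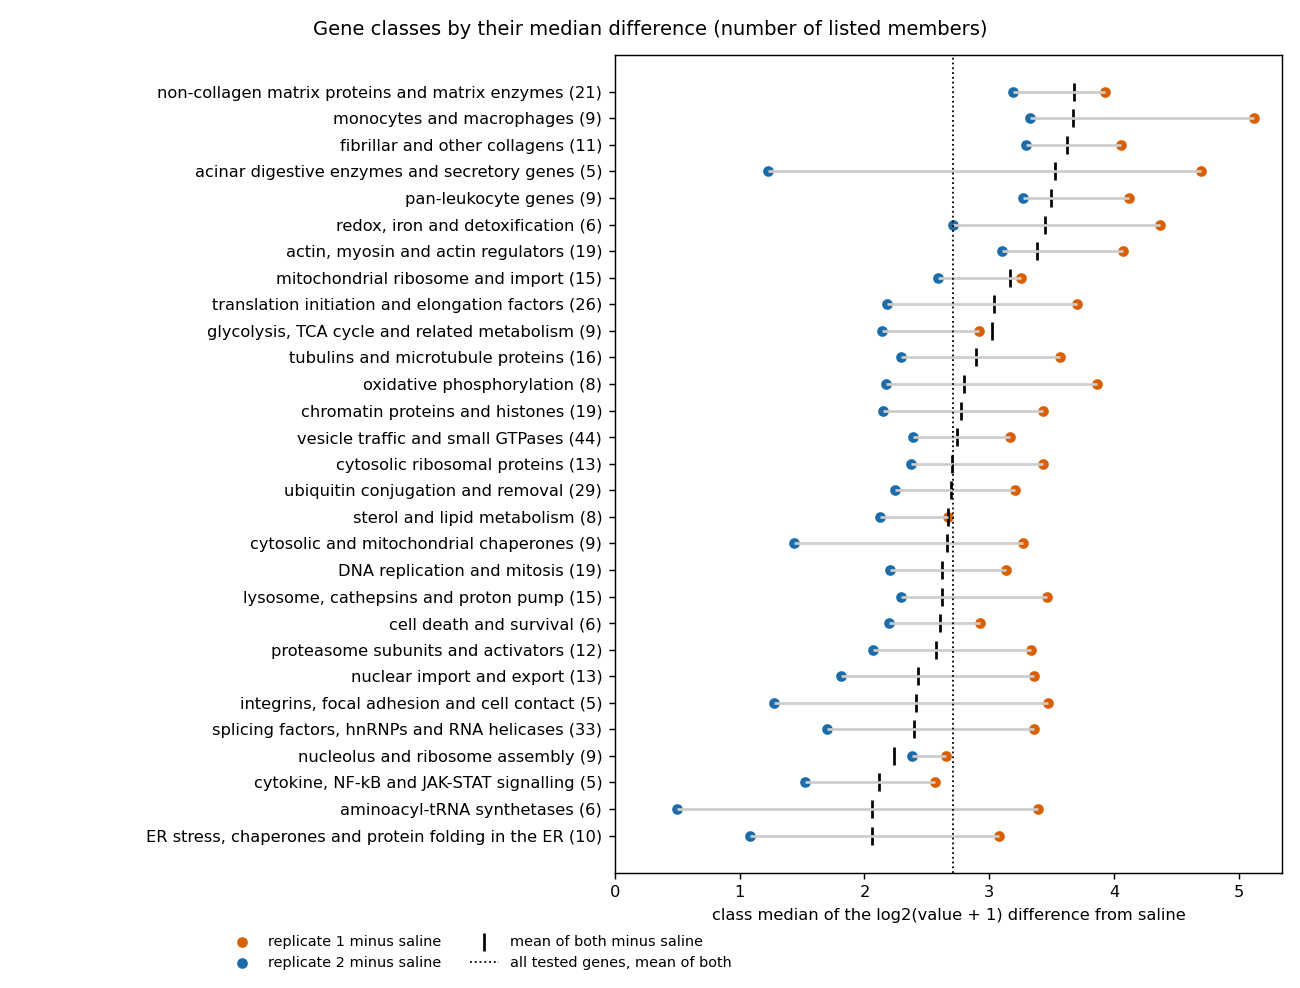
Median log2(value + 1) difference from saline (horizontal axis) for the 29 ranked classes, with the number of listed members in brackets. Orange and blue points are replicates 1 and 2 taken alone, black ticks the mean of both, and the dotted line the 2.71 of all tested genes; the acinar class spans 1.23 to 4.69 and the matrix class 3.19 to 3.92.

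Non-collagen matrix proteins and the enzymes that modify matrix ranked first. Of 58 symbols searched 21 were listed, with a class median of 3.68 against 2.71. Above saline in both caerulein libraries were 20 of the 21, against 87.5% of all listed genes. Sdc1, a cell-surface heparan sulfate proteoglycan, was 0.43 in saline, 85.8 in replicate 1 and 36.7 in replicate 2. Tgfbi, a secreted protein that links collagen to integrins, was 0.70, 76.1 and 38.2. Both genes were far above saline in either treated library, as members named for a high lower treated value tend to be. Fn1, fibronectin, was not detected in saline and was 75.9 and 21.0 after caerulein. Eln, elastin, was 3.83 in saline and 51.9 and 43.2 after caerulein. Lox, which cross-links collagen and elastin, was not detected in saline and was 57.4 and 10.7. Nid1, a basement membrane linker between laminin and collagen IV, went the other way: 11.7 in saline, 7.74 and 0.84 after caerulein. It was the 1 member below saline in both treated libraries.

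Collagens were listed for 11 of 29 symbols, and 9 of the 11 (81.8%) were not detected in saline, against 37.1% of all listed genes. The class median was 3.62, with members between 1.87 and 6.89. Col3a1, which forms the fine fibrils of early scar, was 0.38 in saline, 525.1 in replicate 1 and 50.2 in replicate 2, and ranked first of all 1457 genes (log2 difference 6.89, limma SE 1.17) in a table that is itself ordered by the ratio to saline. Its treated libraries differed by 3.36 on the log2 scale, less than its difference from saline in either. Col14a1, a collagen that sits on fibril surfaces, was 0.01, 32.2 and 25.3, and Col4a2, a basement membrane chain, 0.25, 36.5 and 22.0. Fibrillar Col5a2 was 0.01, 70.4 and 22.2. The treated values of Col14a1 and Col4a2 were thus close together and those of Col3a1 and Col5a2 further apart. Stellate cell and fibroblast genes other than matrix were few, 4 of 22: Pdgfrb, the platelet-derived growth factor receptor of mesenchymal cells, was 0.01, 13.5 and 4.94, Rgs5, a pericyte regulator, 0.01, 22.6 and 11.2, and Fap, a fibroblast surface protease, 0.01, 8.10 and 2.22. Pdgfra, the sister receptor, was 0.99 in saline, 11.5 in replicate 1 and 0.90 in replicate 2, so its treated values lay on either side of saline.

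Macrophage genes ranked second, with 9 of 35 symbols listed and a median of 3.67. All 9 were above saline in both libraries, against 87.5% of all listed genes. Among the ranked classes the macrophage class had the highest median in each treated library taken alone (5.12 in replicate 1, 3.33 in replicate 2). Laptm5, found in lysosomes of haematopoietic cells, was 1.24, 167.2 and 207.3, the second largest difference of all listed genes (6.38, limma SE 1.18). The pan-leukocyte class described below also holds Laptm5. Mpeg1, a macrophage protein that forms pores in engulfed bacteria, was 0.38, 84.7 and 51.6. Ctss, a lysosomal protease that trims antigens, was 0.59, 54.2 and 25.5. These 3 were high in both treated libraries, as members named for a high lower treated value tend to be. Emr1 (F4/80, the classic surface marker of mouse macrophages) was 0.01, 57.4 and 9.27, and the mannose receptor Mrc1 was 0.01, 41.1 and 2.94. For this pair replicate 1 carried most of the signal.

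Pan-leukocyte genes, shared by blood cells of many kinds, were listed for 9 of 25 symbols. Of the 9, 7 (77.8%) were not detected in saline, against 37.1% of all listed genes. Their median was 3.49, and the median gap between the treated libraries was 0.39, against 0.90 for all tested genes. Lcp1, an actin-bundling protein of leukocytes, was 0.01, 44.0 and 28.8. Selplg, the ligand by which leukocytes roll on vessel walls, was 0.99, 35.3 and 46.6, and the adaptor Lcp2 0.01, 11.4 and 9.43. Each of these had treated values within a narrow range. Cd53, a leukocyte tetraspanin, was an exception at 0.01, 19.7 and 0.01. The 3 listed neutrophil genes of 26 were undetected in saline and present in both treated libraries. Among them were Lta4h, which makes leukotriene B4, at 23.3 and 16.1, and Csf3r, the receptor for granulocyte colony-stimulating factor, at 8.09 and 21.8. The median difference of the 3 was 4.335, above that of every ranked class, but 3 genes were too few to rank.

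Of 29 lymphocyte and plasma cell symbols 2 were listed, too few to describe the class. Cd79a, a chain of the B cell receptor, was 8.80 in saline and 5.95 and 3.81 after caerulein. Igj, the joining chain of secreted antibodies, was 0.18, 51.8 and 0.77, so replicate 1 alone stood far from saline. Cxcl13, the chemokine that draws B cells, was likewise 0.01, 32.7 and 0.01. Foxp3, the factor of regulatory T cells, was in no list and was chosen after its values were seen; it was 0.01, 10.14 and 11.67.

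Actin and myosin genes formed the seventh class, with a median of 3.38. Of 19 listed members 18 were above saline in both libraries, against 87.5% of all listed genes. Cfl1, the actin-severing protein cofilin, was 12.2, 410.1 and 126.2. Tmsb10, a thymosin that binds actin monomers, was 7.21, 118.1 and 122.0, and the small GTPase Rac1 2.04, 42.1 and 38.8. Cnn3, a calponin, was 0.01, 35.2 and 30.9. The treated values of Tmsb10, Rac1 and Cnn3 nearly coincided, while those of Cfl1 did not. Tubulins and other microtubule genes stood lower, at a median of 2.89 (13 of 16 above saline in both); Tuba1a was 6.63, 88.9 and 84.9 and Tuba1c 0.01, 57.3 and 41.0. Tubulin genes are close copies of one another, so short reads may have been divided between them.

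Redox and iron genes had 6 of 41 symbols listed and a median of 3.45. All 6 were above saline in both libraries, against 87.5% of all listed genes. Ftl1, the ferritin light chain that stores iron, was 44.4, 1006 and 362, and Trf, transferrin, was 1.11, 92.7 and 27.4. Gpx2, a glutathione peroxidase of epithelia, was 0.01, 18.5 and 39.1, and Prdx4, a peroxidase of the secretory pathway, 2.05, 48.1 and 12.1. Replicate 2 was the higher for Gpx2 and replicate 1 for the other named members. Mitochondrial ribosome and import genes (15 listed, all 15 above saline in both) had a median of 3.16. Vdac3, a channel of the outer membrane, was 0.01, 41.9 and 26.6, Mrpl54, a mitochondrial ribosomal protein, 0.34, 24.3 and 23.0, and the ADP/ATP carrier Slc25a5 5.04, 109.5 and 16.9. The respiratory chain itself was near the middle, with 8 members at a median of 2.80; Cox7a2l, which joins respiratory complexes, was 10.3, 175.2 and 51.5.

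Acinar genes were divided between the 2 treated libraries. Only 5 of 41 symbols were listed. Klk1, a tissue kallikrein, was 8.93 in saline, 562.8 in replicate 1 and 22.2 in replicate 2. Prss3, a trypsinogen, was 1.90, 384.9 and 6.97. Replicate 1 was far above replicate 2 for both, by 4.60 and 5.60 on the log2 scale. Cckar, the cholecystokinin receptor through which caerulein acts, was 0.42, 35.7 and 9.29, Dmbt1, a secreted mucin-like protein, 0.01, 10.4 and 0.76, and the trypsinogen Prss1 was at 0.01 in all 3. The class ranked second in replicate 1 and at rank 27 of 29 in replicate 2, and its difference from saline exceeded the gap between treated libraries for 1 of 5 members, against 80.4% of all listed genes. Kallikrein and trypsinogen genes have near-identical relatives, so their values are uncertain. How the acinar class as a whole differed from saline cannot be read from these 5 genes.

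In all 29 ranked classes the median gap between the treated libraries was toward replicate 1, and 74.4% of the tested genes were higher in replicate 1 than in replicate 2. The tRNA synthetases had the largest median gap of the ranked classes, 3.14 on the log2 scale, followed by the acinar genes, the integrins (1.94), the ER folding genes (1.84), oxidative phosphorylation (1.79) and nuclear transport (1.69); over the tested genes it was 0.90. With equal library sums the synthetase gap was 2.52, that of the acinar genes 2.12 and that of the integrins 1.30. That of the ER genes was 1.15 and that of oxidative phosphorylation 1.08, against 0.23 over the tested genes. The nucleolar (-0.29), pan-leukocyte (-0.23) and cell death (-0.16) gaps were then toward replicate 2. All 6 listed synthetase genes and all 10 ER genes were higher in replicate 1. Hsp90b1, the ER form of HSP90, was 12.1 in saline, 124.5 in replicate 1 and 16.2 in replicate 2. Rpn2 and Rpn1, parts of the enzyme that adds N-glycans, were 7.03, 75.2 and 29.4, and 3.23, 34.6 and 8.00. Gars, which charges glycine tRNA, was 6.54, 42.3 and 1.85, so replicate 2 was below saline; Aimp1, a scaffold of the synthetase complex, was 2.83, 50.0 and 4.15. Ero1lb, an ER oxidase of secretory cells, was 8.48, 8.63 and 0.01. The summed acinar markers given above moved the same way, 983 against 38.5, and their part in these differences was not tested. Measured against saline, the ER class had the lowest median of the ranked classes, 2.06. Its median was below 0 with equal library sums (-0.97) and with quantile normalization (-0.67). Both scalings use only the listed genes, so a median below 0 is relative to those genes. As deposited, 9 of the 10 ER class members were above saline in both libraries.

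**Figure D3:**
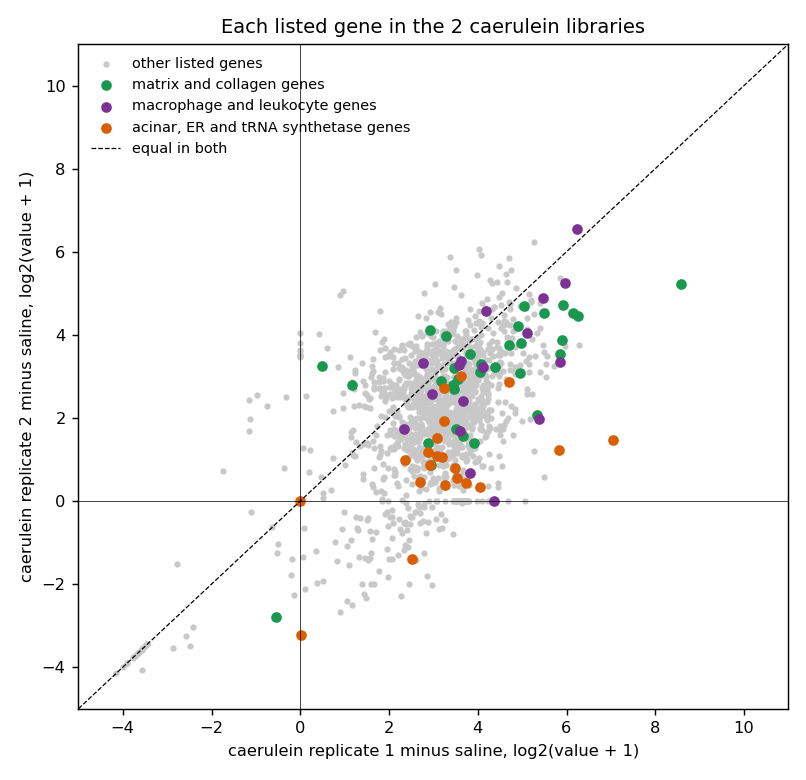
Each listed gene's log2(value + 1) difference from saline in caerulein replicate 1 (horizontal) and replicate 2 (vertical), with 3 groups of classes coloured and the dashed line marking equal values. Acinar, ER and tRNA synthetase genes (orange) lie below the line, except Prss1 on it at 0, with Prss3 at 7.06 and 1.46; macrophage and leukocyte genes (purple) range from Laptm5 at 6.23 and 6.54 to Cd53 at 4.36 and 0.

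Across the tested genes 1063 of 1429 (74.4%) were higher in replicate 1, and 331 (23.2%) differed by over 2 between the treated libraries on the log2 scale. Besides Prss3, Klk1, Igj and Cxcl13, the largest gaps toward replicate 1 included Hspd1, the mitochondrial chaperonin (3.09 in saline, 30.9 and 0.01 after caerulein), Rap1a, a small GTPase (0.01, 25.1 and 0.01), and Arl1, a Golgi GTPase (3.95, 22.7 and 0.01). These are genes that most cells use, and replicate 2 lists each at the lowest value. Toward replicate 2 the largest gaps included Rian, a maternally expressed imprinted RNA (10.3, 20.0 and 350.0), Rfng, a glycosyltransferase that acts on Notch (0.01, 0.97 and 32.4), and Hpx, the haem-binding plasma protein hemopexin (0.01, 0.01 and 15.6). Rian was detected in all 3 libraries, whereas Hpx was seen in replicate 2 alone. The others were Ttbk2, Lgi3, Gata3, Abcc2 and Aph1c, each at or under 0.35 in replicate 1 and between 9.92 and 15.4 in replicate 2. The cytokine and growth signalling class had a gap of 1.18 and the nucleolar class the smallest of the ranked classes, 0.38.

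Classes of protein synthesis and degradation were spread from rank 9 (translation factors) to rank 28 (tRNA synthetases). Ribosomal protein genes were detected in saline for all but 1 of 13, with a median difference of 2.70. All 13 were above saline in both treated libraries, against 87.5% of all listed genes. The highest saline values of the table belonged to Eef1a1, a translation elongation factor (128.7, then 1776 and 330 after caerulein), Rpl41 (118.0, 1532 and 1202), Rplp1 (115.3, 1505 and 584), Ubb, a polyubiquitin gene (68.2, 683 and 457), and Wdr89 (56.3, 488 and 268). For all 5 the treated libraries were above saline, by 13.8-fold and 2.56-fold for Eef1a1 and 13.0-fold and 10.2-fold for Rpl41. Rps16 was 9.22, 429 and 86.9, and Rpl29 13.6, 166 and 287. Ribosomal protein genes have many processed copies in the genome, which may take or lend reads.

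Translation factors were listed for 26 genes, with a median of 3.04. Pabpc1, which binds poly(A) tails, was 6.65, 92.4 and 237, Eif5a 18.8, 167 and 231, and the helicase Eif4a1 8.60, 122 and 60.1. Splicing factors and RNA helicases were the second largest class, 33 genes, 29 of them above saline in both libraries, with a median of 2.40 that was -0.0036 with quantile normalization; Hnrnph2 was 3.57, 47.1 and 89.8 and Hnrnpa3 1.52, 46.4 and 30.7. Proteasome genes had a median of 2.57 (11 of 12 above saline in both), and Psmb8, a subunit of the immunoproteasome, was 0.01, 15.8 and 13.3. Ubiquitin genes had a median of 2.69 over 29 members, among them the ligase Nedd4 (2.06, 66.2 and 34.2) and the conjugating enzyme Ube2d3 (2.56, 70.8 and 39.0). The proteasome and ubiquitin medians turned negative with quantile normalization (-0.16 in both). Vesicle traffic was the largest class, 44 genes at a median of 2.74. Gdi2, which keeps Rab proteins soluble, was 8.63, 177 and 280, higher in replicate 2, unlike 34 of the 44.

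Lysosomal genes had a median of 2.62; Npc2, a cholesterol carrier, was 1.09, 51.4 and 38.8, Lamp1, a membrane glycoprotein, 0.25, 41.9 and 21.0, and Gusb, beta-glucuronidase, 1.60, 41.7 and 50.5. Glycolysis and the citric acid cycle had a median of 3.02 that did not hold its place: its rank was 10 as deposited and 22 of 22 classes when only genes detected in saline were kept. Gpi1, glucose phosphate isomerase, was 3.10, 23.9 and 62.7. Among cell death genes Casp8, the caspase that starts death-receptor apoptosis, was 0.01, 19.3 and 37.4, and Bak1, which permeabilises mitochondria, 1.18, 16.2 and 29.1. The class median was 2.61 over 6 genes.

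DNA replication and mitosis genes were undetected in saline for 11 of 19 listed members (57.9%), against 37.1% of all listed genes. Above saline in both treated libraries were 18 of 19, against 87.5% of all listed genes. The median, 2.62, was close to that of all genes, and the rank of the class moved from 19 as deposited to 5 with a pseudocount of 0.1, which gives more weight to genes at 0.01. Tk1, a thymidine kinase made in S phase, was 0.46, 22.2 and 21.6, and Pcna, the sliding clamp of DNA polymerase, 4.60, 44.9 and 42.6. Birc5 (survivin), which acts at the mitotic spindle, was 0.01, 10.3 and 13.5. In these 3 genes the treated libraries nearly coincided. Chromatin genes had a median of 2.77 over 19 members: the histone variant H2afz was 0.40, 35.4 and 79.5, Npm1, a nucleolar histone chaperone, 0.89, 68.8 and 52.8, and Hmgn1, a nucleosome-binding protein, 9.20, 108.6 and 43.4.

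Promoter sequence was examined for what the class members share beyond their values. RefSeq promoters (GRCm38.p6) were matched for 1155 of the 1457 genes, and the 250 bases before the start were searched on both strands for 4 motifs, none of which contains another. The first was CCAAT, which reads ATTGG on the other strand. The next was the TATA box, searched as TATAAA. The AP-1 motif was searched as TGANTCA, and the last was the core of the interferon-stimulated response element. CCAAT, the box bound by the factor NF-Y and known from many cell cycle promoters, was present in 13 of 18 matched replication and mitosis genes (72.2%), against 40.4% of matched listed genes and 37.5% of the 27025 genes in the promoter table. Other classes had like shares: 4 of 5 redox genes (80%), 6 of 8 macrophage and 6 of 8 ER folding genes (75% each), 7 of 11 tubulin class genes (63.6%), 16 of 27 splicing genes (59.3%) and 10 of 17 chromatin genes (58.8%). TATAAA was found in 0 of the 18 replication genes, against 9.35% of matched listed genes and 14.3% of all genes in the table. It was in 5 of 15 non-collagen matrix genes (33.3%). Shares were higher still in 3 of 7 pan-leukocyte (42.9%), 2 of 5 cell death (40%) and 2 of 3 acinar genes (66.7%). TGANTCA was in 7.82% of all genes and 6.06% of matched listed genes. The interferon element was in 3.46% and 3.9%, and each motif was in 0 of the 18 replication genes. The 3 replication genes with at least 2 CCAAT boxes in the 160 bases before the start, chosen for the highest lower treated value among genes with a single listed promoter, are shown with the boxes in capitals. Mcm3, part of the replicative helicase (0.01 in saline, 8.90 and 10.6 after caerulein), is at chr1:20820313-20820472 on the minus strand and has 3 boxes. Cenpa, the centromeric histone (0.74, 14.3 and 6.51), is at chr5:30666726-30666885 on the plus strand and has 2. Top2a, the topoisomerase of dividing cells (0.01, 15.3 and 3.65), is at chr11:99024190-99024349 on the minus strand and has 4.
Mcm3: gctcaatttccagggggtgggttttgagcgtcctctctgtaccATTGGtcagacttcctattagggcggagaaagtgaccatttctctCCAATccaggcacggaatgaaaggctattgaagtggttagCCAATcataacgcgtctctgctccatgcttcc
Cenpa: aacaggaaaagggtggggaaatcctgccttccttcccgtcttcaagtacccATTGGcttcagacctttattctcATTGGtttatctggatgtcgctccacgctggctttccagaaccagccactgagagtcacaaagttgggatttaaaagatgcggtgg
Top2a: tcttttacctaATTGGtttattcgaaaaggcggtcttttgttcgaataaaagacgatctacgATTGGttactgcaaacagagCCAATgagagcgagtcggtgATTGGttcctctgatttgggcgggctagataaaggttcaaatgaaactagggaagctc

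The 11 small classes, with at most 4 listed members each, were read gene by gene. Of the 4 epithelial injury genes, 2 were above the median of all genes. Krt8, a keratin of simple epithelia, was 7.78, 352.5 and 142.9, and S100a11, a calcium-binding protein, 12.1, 221.1 and 789.5. S100a6 was 0.64, 14.5 and 4.96, and Anxa10, an annexin of stomach-type epithelium, was 0.01, 12.3 and 0.01. Early response genes gave close treated pairs: Jun, a subunit of the AP-1 factor, was 2.01, 41.8 and 37.3, Ier5 1.19, 24.2 and 20.0, and the stress factor Atf3 0.61, 12.1 and 6.76. All 3 of these were above saline in both libraries.

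Antigen presentation was represented by H2-Eb1, an MHC class II chain (3.31, 74.3 and 25.4), H2-DMb1, which loads peptide onto class II (0.51, 7.84 and 9.05), Psmb8 and Erap1, a peptide trimmer of the ER (4.2, 10.5 and 1.73). Erap1 alone had treated values on both sides of saline. Of 34 interferon-induced symbols 4 were listed, all above saline in both treated libraries. Oas1a, an antiviral sensor, was 1.09, 8.83 and 15.1, Ifit3 0.01, 8.52 and 5.35, and Gbp2 1.07, 8.91 and 5.98. Endothelial Cd34 was 1.13, 31.0 and 35.7, and Vwf, the clotting protein of vessel walls, 2.08, 10.2 and 22.9; both were higher in replicate 2. Adipocyte genes were found chiefly in replicate 1. Cfd, adipsin, was 3.10, 43.2 and 1.37, Cd36, a fatty acid transporter, 0.01, 37.6 and 1.33, Retn, resistin, 0.01, 7.40 and 0.01, and Lpl, lipoprotein lipase, 3.11, 29.2 and 12.7.

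Cytokine and growth signalling genes, the other class with a median below that of all genes in all 10 settings, were 5 of 33 symbols with a median of 2.11. Jak1, a kinase of cytokine receptors, was 0.79, 21.0 and 4.37, Rela, a subunit of NF-kB, 0.56, 8.25 and 10.1, and Lifr, the receptor of leukaemia inhibitory factor, 2.95, 20.8 and 5.79. Pias3, an inhibitor of STAT3, was 4.01, 7.09 and 5.04. All 5 were above saline in both libraries; with equal library sums the class median was -0.16 and with quantile normalization -0.65.

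Among genes detected in saline the 15 largest included Rheb, the GTPase that switches on the growth kinase mTORC1 (0.57, 34.2 and 78.3), Thbs4, a matrix glycoprotein (0.27, 31.2 and 48.3), and Sdcbp, syntenin, which binds the tail of syndecans such as Sdc1 (0.45, 90.04 and 18.4). Ptp4a2, a growth-linked phosphatase, was 1.64, 55.9 and 100.7, Prelid1, which carries phospholipid within mitochondria, 2.53, 91.9 and 94.2, and BC048507 1.87, 109.6 and 213.6. The treated values of Prelid1 nearly coincided. Limma's SE for the 15 ran from 1.06 to 1.25. Each difference exceeded the gap between its treated libraries, as 80.4% of those of all listed genes did. The 15 were picked for large differences, so this follows in part from the choice. Among genes undetected in saline the highest treated means included Serpine2, a protease inhibitor of connective tissue (23.9 and 43.7), Gnpda1, of amino sugar metabolism (26.1 and 46.4), Hmgb2, a chromatin protein of dividing cells (77.0 and 12.6), and Aldoart1, a retrogene of aldolase A (15.4 and 66.6). No fold is given for these, and the reads of Aldoart1 may come from its parent gene.

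**Figure D4:**
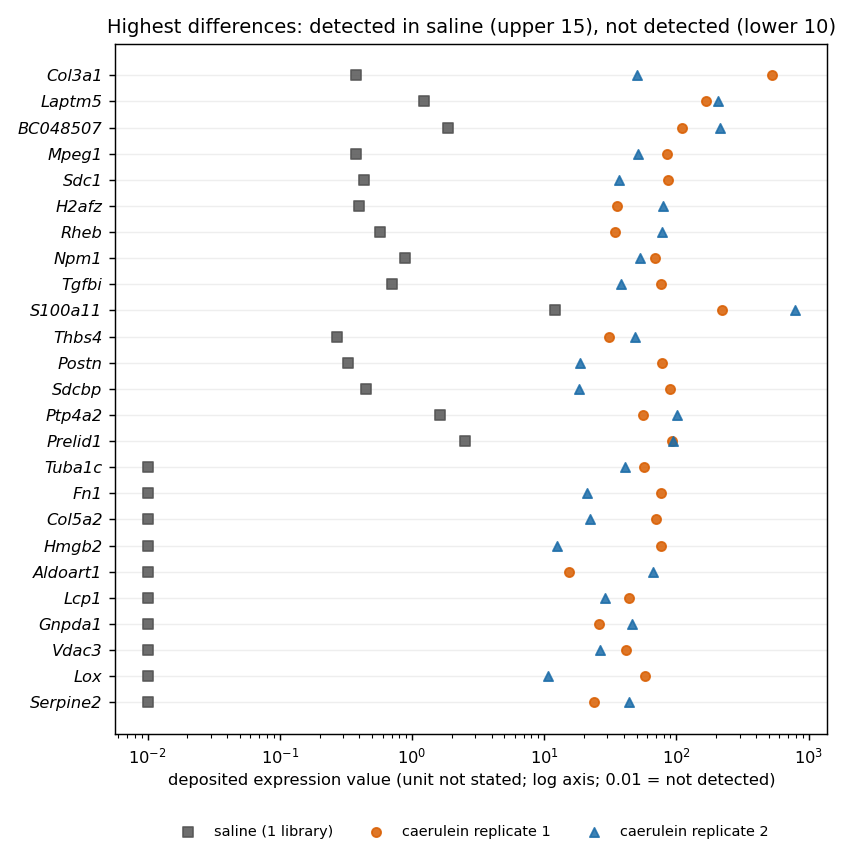
Deposited value (horizontal log axis, unit not stated) in saline (squares) and caerulein replicates 1 (circles) and 2 (triangles) for the 15 largest differences among genes detected in saline, above, and the 10 highest treated means among genes at 0.01 in saline, below. In each row both treated points lie to the right of saline, with Col3a1 at 525.1 and 50.2 against 0.38.

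Genes lower than saline in both treated libraries numbered 36 (2.47% of those listed). For 22 of them both treated libraries were at 0.01, and saline values ran from 10 to 16.9 with a median of 11.6. As 1416 of the 1457 genes reached 10 in at least 1 of the 5 libraries, the 22 may be listed for their saline value. Their fall would then be fixed in part by the choice of genes. Among these 22, 19 were at 0.01 in both knockout caerulein libraries as well, so only the saline library detected them. They were led by Dok7, an adaptor at the nerve-muscle synapse (16.9), Hydin, of motile cilia (14.97), Vmo1 (14.1) and Dmrt3, a transcription factor of the nervous system (14.0). Others were Fsd1 (12.8), Pkd1l3, a taste cell channel subunit (12.7), Lrit2 (12.3), Rgs3, a G protein regulator (12), and Mmp25, a membrane-anchored metalloprotease (11.8). Abcg4, a sterol transporter, was 15.9 in saline and 0.42 and 0.01 after caerulein. The filter left 21 of the 22 untested, and Mmp25, the only 1 tested, had a limma adjusted p = 0.3493.

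The 14 other lower genes were detected in at least 1 treated library. Of 26 islet symbols 3 were listed, and 2 of them were among these lower genes. Slc2a2, the glucose transporter GLUT2 of beta cells and some epithelia, was 10.3, 1.01 and 0.01. Pcsk2, the prohormone convertase of endocrine cells, was 15.6, 9.70 and 9.73. The third islet gene, Ero1lb, which is also in the ER class, was not lower in replicate 1 (8.48, 8.63 and 0.01). Hbb-b2, a haemoglobin chain that marks red cells, was 25.6, 23.3 and 4.56, so replicate 1 was close to saline and replicate 2 was not. Gata1, a factor of the red cell lineage, was 11.7, 1.12 and 0.34, Tead4, a DNA-binding partner of YAP, 10.7, 0.61 and 0.01, and Nf2, a growth suppressor, 11.7, 7.79 and 4.34. The gene lower by the least was Pcsk2, at 0.63 on the log2 scale (limma SE 1.05, adjusted p = 0.5816).

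**Figure D5:**
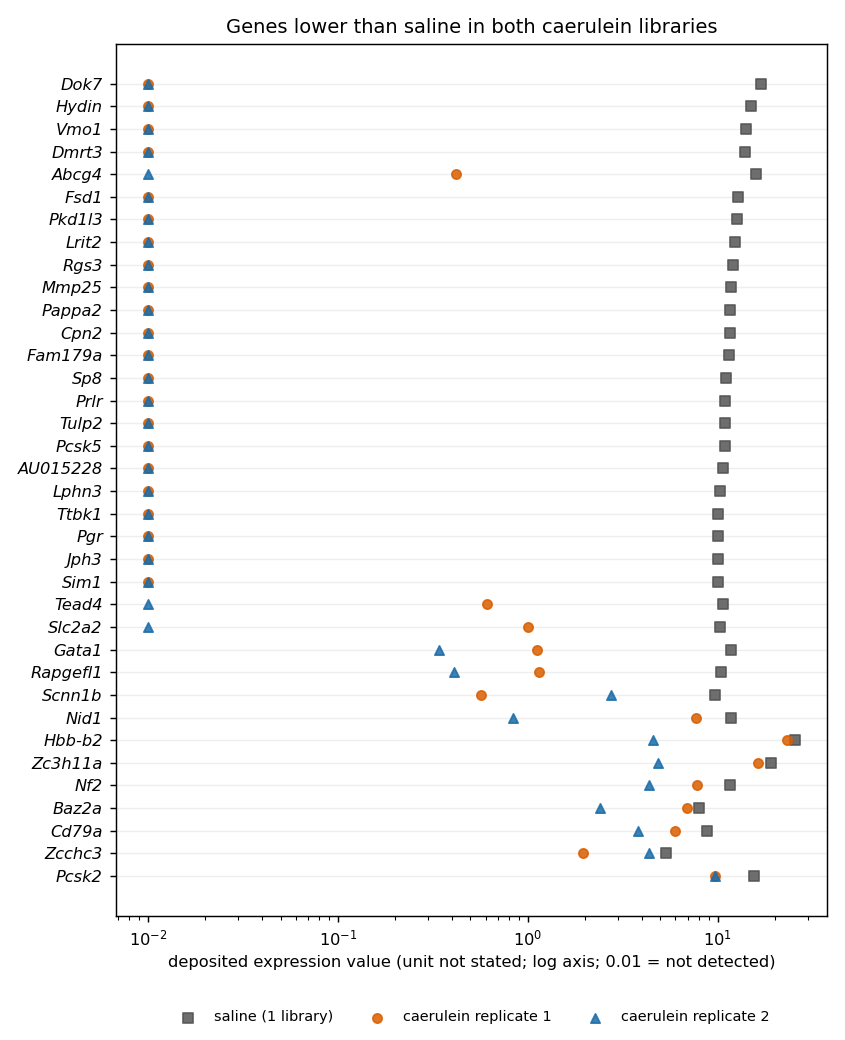
Deposited value (horizontal log axis, unit not stated) in saline (squares) and caerulein replicates 1 (circles) and 2 (triangles) for the 36 genes lower in both treated libraries, ordered by log2 difference. The upper rows hold genes at 0.01 in the treated libraries and 10 or more in saline; the lower rows hold genes such as Pcsk2 at 15.6, 9.70 and 9.73.

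A limma model over all 5 libraries called 819 of 1429 tested genes higher (57.3%) and 0 lower (915 of either direction at an unadjusted p under 0.05, 0 of them lower). Of the top classes it called 15 of 21 non-collagen matrix, 8 of 11 collagen, 6 of 9 macrophage, 7 of 9 pan-leukocyte and 15 of 19 actin genes, and 2 of 10 ER and 1 of 6 tRNA synthetase genes; genes appear to have been listed for differing from saline, so nothing is read from these numbers. The call count depended on the libraries kept and on scaling. Equal sums gave 246 higher and 37 lower, and only quantile normalization reversed the direction, with 0 higher and 7 lower. With 2 libraries against 1, an exact permutation test cannot give a p below 0.333, so the single saline library sets the limit of every comparison above.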

How the data were processed

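Per the labels' protocols, poly(A) RNA of the whole gland was read by Illumina sequencing; Bowtie 0.12.2 and the build mm8 are listed in the submitters' processing notes. The authors deposited a signal for each gene symbol in each library and name no unit. For annotation, quantification and normalization, the sources used here give nothing. Each file holds 1457 genes plus 1 blank row, which was dropped. Values were used as deposited, as log2(value + 1), with 0.01 treated as not detected.

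The 1429 genes that reached 1 in 2 or more of 5 libraries entered a limma 3.58.1 model (R 4.3.3; 1 mean per group, trended robust empirical Bayes variance, Benjamini-Hochberg over all tested genes, threshold 0.05). The saline library is assumed to vary like the caerulein groups. The scripts were tested on simulated data that lack the general shift of the saline library seen here, so that test checks the code only. Classes came from 40 lists, by symbol or by name pattern, and were described by counts and medians without a set test. Genes named are the 15 largest upward differences among detected genes, the 10 highest treated means among undetected genes, the 10 largest downward differences, up to 4 members per ranked class, all members of small classes, the 8 largest gaps between treated libraries each way, cell type markers and the 5 highest saline values; further members are named as examples after their values were seen, and some genes the rule names are not reported here. Within a ranked class the up to 4 members were those with the highest lower treated value, plus the largest fall if any. Members and lists were chosen with earlier results of these data known. Python 3.11.15 with scipy 1.17.1 was used, and 1453 symbols were matched to RefSeq names. Alternatives were another pseudocount, 2 scalings, 2 filters, other variance settings, detected genes only and leaving out libraries.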

Additional observations from a re-analysis of the deposited data

How the results depend on the processing

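The 819 calls became 283 with equal sums, 7 (all lower) with quantile normalization, 478 with only genes detected in saline, 440 with only the 3 wild-type libraries and 480 without trend and robustness; leaving out 1 library at a time gave 377 to 1080. The median difference of 2.71 became 3.88 with a pseudocount of 0.1, 0.76 with equal sums and 0.065 with quantile normalization. Both scalings bring the saline library to the level of the others. They were computed over the 1457 listed genes alone, of which 1412 had a caerulein mean above saline. They therefore remove much of the rise shared by the listed genes, and a class median below 0 is relative to those genes. The 10 highest classes shared 7 to 10 members with those of the other settings, except when only genes detected in saline were kept: 5 of the 10 could then be ranked and 4 stayed. Of 29 class medians 14 fell below 0 under a scaling. With equal sums these were cytokine signalling (-0.16), nucleolus (-0.056), ER folding (-0.97), chaperones (-0.52), lysosome (-0.0075), sterol and lipid (-0.32) and cell death (-0.041). With quantile normalization they were integrins (-0.19), cytokine signalling (-0.65), ribosomal proteins (-0.078), tRNA synthetases (-0.27), nucleolus (-0.66), splicing (-0.0036), proteasome (-0.16), ubiquitin (-0.16), ER folding (-0.67), chaperones (-0.042), lysosome (-0.063), sterol and lipid (-0.065), nuclear transport (-0.23) and cell death (-0.11). The share of genes higher in replicate 1, 74.4%, was 57.5% with equal sums and 65.1% among the 872 genes of at least 5 in both treated libraries. The restriction to genes above 0.01 in both treated libraries was chosen after the data were seen. The edgeR and DESeq2 fits planned for count files were not run, since the files hold no counts. No paired analysis was possible because the wild-type saline and caerulein groups share only replicate number 1.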

Other observations

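Of the 28 genes that did not pass the filter, 21 were lower after caerulein and 7 were detected mainly in wild-type caerulein replicate 2. The latter were BC002163 (11.9), the olfactory receptor gene Olfr629 (11.5), Grip2 (11.3), the neuronal GTPase Rit2 (10.6), the receptor kinase Erbb4 (10.6), Cap2 (10.4) and the phosphatase Ptprr (10.3). Apart from BC002163, at 0.54 in replicate 1, these genes were at 0.01 in saline and in replicate 1. Their values in replicate 2 lie just above 10. The saline values of the 22 genes seen in saline and in neither treated library ran from 10 to 16.9.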
